A study of Mus musculus with 3 samples.

Results

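The 5 immediate-early genes Fos, Jun, Junb, Egr1 and Ier2 and the small heat shock gene Hspb1 were followed in single epithelial cells of mouse embryo skin. The 6 genes were given by name and were all found by symbol among the 14656 genes present in both count tables. They were described by cell class and by library, so that a difference between classes inside a library could be read apart from a difference between libraries inside a class. The cells came from dorsal skin epithelium of wild-type C57BL/6JOlaHsd embryos at E14.5, the stage at which hair placodes form. There were 2 placode-enriched libraries, of cells sorted as positive for the surface protein MAdCAM-1, and 1 library of live total epithelium. In each, sheets parted from the mesenchyme with Dispase II were pooled from 3 to 4 littermates and freed with TrypLE Select, so a library is a pool of embryos and no value belongs to a single animal. Every group shared the genotype, strain, age, enzymes and antibody staining and went through the same kind of cell sorter, and the labels held no group that was spared the dissociation. The design text calls the placode-enriched libraries biological replicates.

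Immediate-early genes are transcribed within minutes of a stimulus, without new protein synthesis, when growth factor or stress signals reach transcription factors that already sit in the cell. Fos pairs with a Jun protein to form AP-1, a DNA-binding dimer that in skin takes part in the switch of keratinocytes from division to differentiation. Enzymatic release of tissue is itself a known stimulus for these genes, which makes them a common gauge of handling in single-cell work. Hspb1 encodes HSP27, a small chaperone induced by heat and other stress and known in epidermis as a protein of differentiating keratinocytes.

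Except for Junb and Ier2, which share chromosome 8, each gene lies on a chromosome of its own. On build GRCm38 (mm10), with GENCODE M21 gene models, Fos lies at chr12:85473890-85477273 on the plus strand and Hspb1 at chr5:135887919-135889563 on the plus strand. Jun, a gene of 1 exon, lies at chr4:95049034-95052222 on the minus strand, where 689 bases overlap the antisense gene Junos. Junb lies at chr8:84974484-84978718 and the single-exon gene Ier2 at chr8:84661331-84662852, both on the minus strand. The Junb model overlaps Prdx2, on the other strand, by 351 bases. The strand setting of the authors' counting was not given in the sources used here, so reads in these overlaps cannot be assigned with certainty. Promoters of 4 members, Fos, Hspb1, Jun and Junb, were taken from the RefSeq promoter table (build GRCm38.p6). Ier2 had no matched entry there, and Egr1 was left out of the motif search. Of the 4, 3 are shown because Hspb1 and Fos followed each other across classes while Jun did not. Each is the 250 bases before the annotated start, with the start side at the right end. Capitals mark matches, on either strand, to GAANNTTC (a heat shock element core), TGACGT (a cyclic AMP response half-site, which can lie inside a TGANNTCA), TGANNTCA (the site of ATF and Jun dimers), a MEF2-type site, CCAAT and TATAAA.
Hspb1, chr5:135887669-135887918, plus strand: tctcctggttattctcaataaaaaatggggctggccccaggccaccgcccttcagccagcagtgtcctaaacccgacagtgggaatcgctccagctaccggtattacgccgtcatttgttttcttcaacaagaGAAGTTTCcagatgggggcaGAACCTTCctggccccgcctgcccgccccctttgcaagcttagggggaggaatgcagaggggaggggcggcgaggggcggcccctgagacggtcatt
Fos, chr12:85473640-85473889, plus strand: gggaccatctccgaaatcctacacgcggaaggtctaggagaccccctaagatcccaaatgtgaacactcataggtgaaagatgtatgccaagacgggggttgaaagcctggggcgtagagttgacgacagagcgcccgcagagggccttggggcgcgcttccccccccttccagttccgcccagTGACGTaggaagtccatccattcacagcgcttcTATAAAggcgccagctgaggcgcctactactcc
Jun, chr4:95052223-95052472, minus strand: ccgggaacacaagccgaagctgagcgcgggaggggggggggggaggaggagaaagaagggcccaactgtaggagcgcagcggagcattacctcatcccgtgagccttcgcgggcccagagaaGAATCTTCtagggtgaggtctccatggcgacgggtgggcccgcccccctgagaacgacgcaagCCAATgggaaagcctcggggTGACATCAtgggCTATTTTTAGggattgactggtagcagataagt

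Hspb1 held 2 heat shock element cores, at -117 to -110 and -97 to -90 from the start, and Jun held 1 at -128 to -121. This core occurred in 6.69% of the 32851 mouse promoter windows of the same length. Fos held the cyclic AMP half-site at -66 to -61 (6.47% of windows) and a TATA box at -33 to -28 (12.4%). Jun held the TGANNTCA site at -45 to -38 (11.9%), the MEF2-type site at -33 to -24 (3.20%) and a CCAAT box at -65 to -61 (33.8%). The Junb window held a CCAAT box at -36 to -32. The AP-1 site TGANTCA (6.75% of windows) and the CArG box (1.47%), the element bound by serum response factor, were in none of the 4 windows. GC boxes, GGGCGG, were found in the Fos, Hspb1 and Jun windows and in 32.7% of all windows, and are left in lower case. These are matches of letters only, in 250 bases of 4 members. They do not tell whether Egr1, Ier2 or bases farther from the start hold such sites.

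Each library held 1511 to 1601 cells and 34895848 to 38640357 UMIs, the molecular tags that count captured RNA molecules, with medians of 21642 to 23419 UMIs per cell. Unsupervised clusters, built without the 6 genes, were called suprabasal-like, placode-like or basal epidermis-like, here basal-like for short. Suprabasal-like stands for cells above the basal layer, named by Krt1, Krt10 and 6 others. Placode-like clusters were named by Dkk4, Edar, Shh and others, and basal-like ones by Krt5, Krt14 and others. Series of 3 values run in the order placode-enriched library 1, placode-enriched library 2, total epithelium library. There were 73, 84 and 323 suprabasal-like cells, 892, 927 and 112 placode-like cells, and 186, 178 and 1072 basal-like cells. The basal-like class was not built from the same clusters in each: cluster 9, led by G2/M cell cycle genes, held 168, 168 and 30 of its cells, while clusters 1, 2 and 6 held most of it in total epithelium. In the suprabasal-like class, cluster 8 held 71, 82 and 233 cells and cluster 10 held 2, 2 and 90. UMIs of a class were summed per library and are given as CPM, UMIs per 1000000 UMIs of that sum. Intervals cover counting error only. Of markers of other cell types, those of melanoblasts summed to at most 5.22 CPM in these classes. The 6 fibroblast markers in both tables summed to 247, 205 and 302 CPM in suprabasal-like cells, 1229, 1114 and 1591 CPM in placode-like cells, and 772, 574 and 827 CPM in basal-like cells, almost all of it Dcn and Postn, while the defining collagen genes Col1a1 and Col3a1 were at most at 0.259 and 1.03 CPM. The 3 immune markers summed to 18.6, 18.0 and 3.24 CPM in suprabasal-like, 111, 108 and 92.7 CPM in placode-like and 32.2, 31.2 and 13.5 CPM in basal-like cells, nearly all of it Cd74. The part of these sums in the class differences was not tested.

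**Figure D1:**
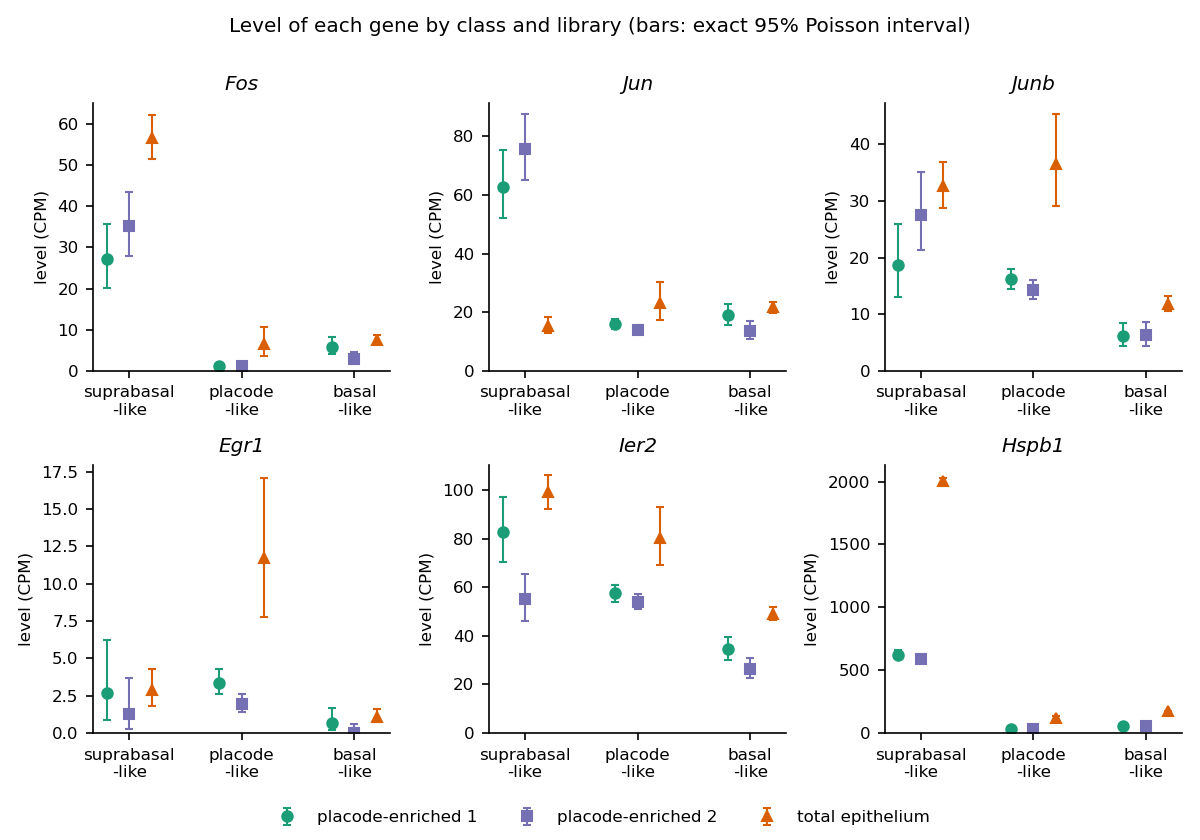
Level (CPM, linear axis from 0) of each member in suprabasal-like, placode-like and basal-like cells of each library, with exact 95% Poisson intervals. Hspb1 and Fos stood highest in suprabasal-like cells of all 3 libraries, with total epithelium above both placode-enriched libraries, whereas Jun was high in suprabasal-like cells of the placode-enriched libraries and at 15.5 CPM in those of total epithelium.

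Suprabasal-like cells carried more Hspb1, Fos, Junb and Ier2 RNA than basal-like cells of the same library, in every library. These were 4 of the 5 members tested, where 28.6% of the 5598 genes tested passed in either direction. Hspb1 stood at 621, 590 and 2001 CPM in suprabasal-like cells, against 52.2, 59.7 and 173 CPM in basal-like cells. Within each library the ratio was 11.9, 9.88 and 11.6, and the suprabasal-like values did not overlap the basal-like ones. The fitted difference was 3.43 ± 0.07 on the log2 scale (SE, library as a block), 10.8-fold, with adjusted p = 4.12e-07. Fos had 27.1, 35.1 and 56.6 CPM in suprabasal-like cells, against 5.89, 2.82 and 7.51 CPM in basal-like cells, again without overlap. Its ratios within libraries spread more, from 4.60 to 12.5, and the fit gave 2.85 ± 0.23 on the log2 scale (adjusted p = 9.21e-05). Junb, an AP-1 subunit that can hold back Jun activity, had 18.6, 27.6 and 32.7 CPM in suprabasal-like cells, against 6.22, 6.30 and 11.8 CPM in basal-like cells. Its lowest suprabasal-like value lay above its highest basal-like value, and the difference was 1.64 ± 0.17 (log2, adjusted p = 0.000355). Ier2, which encodes a short-lived nuclear protein, had 82.9, 55.2 and 99.1 CPM in suprabasal-like cells, against 34.5, 26.5 and 49.1 CPM in basal-like cells. The difference of 1.06 ± 0.10 (log2, adjusted p = 0.000184) was the smallest of the 4, and it was 0.75 with adjusted p = 0.0704 when only cells under 500 CPM of G2/M genes were kept, which left 8, 6 and 436 basal-like cells.

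Jun did not pass in this comparison, and its libraries went in opposite directions. It had 62.7, 75.7 and 15.5 CPM in suprabasal-like cells, against 19.0, 13.6 and 21.7 CPM in basal-like cells. The suprabasal-like value was 3.31 and 5.56 times the basal-like one in the placode-enriched libraries and 0.714 times in total epithelium. The pooled difference was 1.11 ± 0.49 (log2, adjusted p = 0.135), and it was 2.04 without the total epithelium library, where it passed. Egr1, a zinc finger transcription factor, was too sparse in both classes for this test. It had 2.66, 1.25 and 2.87 CPM in suprabasal-like cells, from 5, 3 and 23 UMIs, against 0.65, 0 and 1.10 CPM in basal-like cells.

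**Figure D2:**
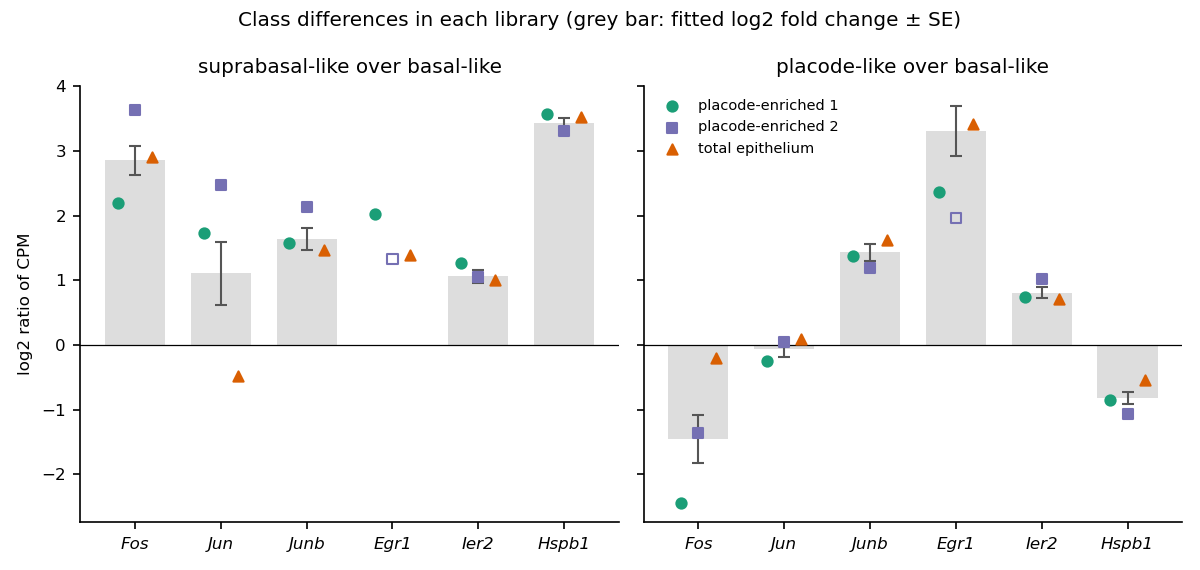
Log2 ratio of CPM between classes of the same library (points) and the fitted log2 fold change with its SE (grey bars), for suprabasal-like over basal-like cells (left) and placode-like over basal-like cells (right). Open symbols are lower bounds, where the basal-like sum held 0 UMIs; the 3 points of Hspb1 on the left lie between 3.30 and 3.57, while those of Jun lie on both sides of 0.

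Placode-like cells carried more Egr1, Junb and Ier2 RNA and less Hspb1 and Fos RNA than basal-like cells, 5 of the 6 members tested, where 36.8% of the 6099 genes tested passed. Egr1 had 3.36, 1.95 and 11.7 CPM in placode-like cells, against 0.65, 0 and 1.10 CPM in basal-like cells. The classes did not overlap. In placode-enriched library 2 the basal-like sum held 0 Egr1 UMIs, so the placode-like level was at least 3.91-fold higher there, set against a floor of 3 counts per library, and it was 5.14-fold and 10.7-fold higher in the other libraries. The adjusted p was 2.18e-05. Junb had 16.1, 14.3 and 36.6 CPM in placode-like cells, against 6.22, 6.30 and 11.8 CPM in basal-like cells. It was 2.60, 2.27 and 3.09 times as high, a difference of 1.44 ± 0.13 (log2, adjusted p = 2.62e-06). Prdx2, whose model it overlaps, had 1060, 1023 and 1006 CPM in placode-like cells and 821, 811 and 866 CPM in basal-like cells. Ier2 had 57.5, 54.1 and 80.5 CPM in placode-like cells, against 34.5, 26.5 and 49.1 CPM in basal-like cells. The difference of 0.81 ± 0.08 (log2, adjusted p = 4.44e-06) kept its direction in each library. In the placode-enriched libraries 4.30% and 3.37% of basal-like cells were under 500 CPM of G2/M genes, against 38.2% and 44.1% of placode-like cells. In clusters 11 (placode-like) and 9 (basal-like), both with leading G2/M genes, Egr1 was at 1.11 and 1.35 against 0.71 and 0 CPM. These Egr1 values came from 10 and 13 against 4 and 0 UMIs. Junb was at 12.8 and 9.32 against 5.85 and 6.00 CPM, and Ier2 at 48.5 and 39.4 against 35.3 and 25.7 CPM. The part of this mismatch was not tested.

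Hspb1 was lower in placode-like cells, at 28.9, 28.6 and 119 CPM, against 52.2, 59.7 and 173 CPM in basal-like cells. The ratio was 0.553, 0.479 and 0.688 inside the 3 libraries, and the fitted difference was -0.82 ± 0.09 (log2, adjusted p = 1.25e-05). The classes overlapped across libraries, and without the library block the adjusted p was 0.384. The summed level of the 8 suprabasal markers moved the same way, at 227, 192 and 973 CPM in placode-like cells and 386, 332 and 1257 CPM in basal-like cells, and its part in the Hspb1 difference was not tested. Fos had 1.09, 1.09 and 6.53 CPM in placode-like cells, against 5.89, 2.82 and 7.51 CPM in basal-like cells. The difference of -1.45 ± 0.37 (log2, adjusted p = 0.00793) rested on few UMIs, 21, 23 and 15 in placode-like cells. It was -0.72 with adjusted p = 0.187 without placode-enriched library 1, and -1.83 with adjusted p = 0.0599 without the library block. Without that block the adjusted p was 0.0550 for Junb and 0.0664 for Egr1 as well. Jun stood at 15.9, 14.1 and 23.1 CPM in placode-like cells, against 19.0, 13.6 and 21.7 CPM in basal-like cells, a difference of -0.07 ± 0.11 (log2, adjusted p = 0.667).

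The order of the 3 classes therefore differed from gene to gene. Set directly against placode-like cells, suprabasal-like cells held more Fos (4.34 ± 0.30, log2, adjusted p = 1.78e-05), Hspb1 (4.25 ± 0.08, adjusted p = 5.16e-08) and Jun (1.53 ± 0.45, adjusted p = 0.0302), and less Egr1 (-1.45 ± 0.43, adjusted p = 0.0301). In that comparison 34.8% of 5564 genes passed. The Jun and Egr1 calls were each lost with DESeq2, at adjusted p = 0.265 and 0.235. Without the library block the edgeR adjusted p was 0.0708 for Jun and 0.471 for Egr1. Jun in total epithelium ran the other way, at 15.5 CPM in suprabasal-like cells against 23.1 CPM in placode-like cells, and its pooled difference was 0.86 without placode-enriched library 2. Egr1 was at -0.51 without the total epithelium library. Ier2 and Junb differed by 0.25 ± 0.11 and 0.29 ± 0.21 between these classes and did not pass (adjusted p = 0.127 and 0.328). Thus Fos and Hspb1 were highest in the suprabasal-like class, Egr1 had the highest of its 3 class values in placode-like cells in each library, and Junb and Ier2 were above basal-like cells in both other classes without a called difference between them.

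Levels also varied among clusters of a class. Within placode-like cells of placode-enriched libraries 1 and 2, Egr1 stood at 8.69 and 3.47 CPM in cluster 4, led by Shh, and at 1.11 and 1.35 CPM in cluster 11, led by Dkk4 and G2/M genes. Junb had 28.4 and 21.5 CPM in cluster 4 and 12.8 and 9.32 CPM in cluster 11. Ier2 had 74.6 and 69.1 CPM in cluster 4 and 48.5 and 39.4 CPM in cluster 11. All 3 genes were thus higher in cluster 4 than in cluster 11 in both libraries. Cluster 5, led by Sprr2a3 and Dkk4, did not keep 1 place in this order. Egr1 was at 3.27 and 5.71 CPM there, from 4 and 6 UMIs, and Ier2 at 74.5 and 96.1 CPM. Both were above cluster 4 in placode-enriched library 2, where the Egr1 value of cluster 4 came from 14 UMIs. Junb was at 10.6 and 19.0 CPM in cluster 5. In total epithelium, Hspb1 stood at 4065 CPM in cluster 10, whose leading genes include Krt77 and Lgals3, and at 1373 CPM in cluster 8. Ier2 was at 125 and 91.2 CPM, Junb at 45.5 and 28.8 CPM, and Jun at 6.95 and 18.0 CPM in clusters 10 and 8. These are single cluster sums, given as a description.

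Inside each class, the placode-enriched libraries were next set against the total epithelium library. The total epithelium level comes from 1 library, which the fit assumes to vary like the placode-enriched ones, and a permutation of 2 against 1 libraries cannot go below p = 0.333 (one-sided). The edgeR p-values in these fits rest on a spread borrowed from all genes. DESeq2, which also borrows spread across genes, is given beside them as a second tool with the same limit. Sort, litter and preparation differ together between these libraries and cannot be told apart.

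Hspb1 was lower in the placode-enriched libraries in all 3 classes. The fitted level was 3.33-fold lower in suprabasal-like cells, 3.99-fold lower in placode-like cells and 2.94-fold lower in basal-like cells (SE on the log2 scale 0.14, 0.15 and 0.13; edgeR adjusted p = 2.30e-33, 5.26e-35 and 9.90e-30). With DESeq2 the adjusted p was 1.31e-24, 1.90e-15 and 4.85e-13. The basal-like call was lost at resolution 2 (adjusted p = 0.233) and under the limit on G2/M genes, which left 8 and 6 basal-like cells of the placode-enriched libraries, against 436 of total epithelium, and gave -0.41 on the log2 scale (adjusted p = 0.999). Genes passing in these fits made up 19.7% of 5158, 4.49% of 6458 and 14.2% of 5705 tested. The basal-like value could be read inside a single cluster: in cluster 9, Hspb1 was at 48.2 and 56.6 CPM in the placode-enriched libraries, against 146 CPM in total epithelium. Suprabasal markers moved with it in each class. Their sum was 4398 and 4615 CPM in suprabasal-like cells of the placode-enriched libraries against 14909 CPM in those of total epithelium, and in the whole libraries it was 487 and 500.1 CPM against 4224 CPM.

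Expressed per 100 UMIs of suprabasal markers, Hspb1 came to 14.1, 12.8 and 13.4 UMIs in suprabasal-like cells, 12.7, 14.9 and 12.2 in placode-like cells, and 13.5, 18.0 and 13.7 in basal-like cells. It was 16.7 in the 20 melanoblast-like cells of total epithelium. Hspb1 thus kept a ratio to the summed 8 markers within 12.2 to 18.0 across the 3 epithelial classes and libraries. Its own level ran from 28.6 to 2001 CPM. The ratio to Krt1 alone was less even. Krt1 was at 649, 650 and 2891 CPM in suprabasal-like cells and 14.2, 11.2 and 100 CPM in placode-like cells. Hspb1 lay below Krt1 in the former class and above it in the latter, in each library. Droplets also capture RNA set free from broken cells, and its part in these values was not tested. Fos did not keep 1 ratio: it came to 0.617, 0.761 and 0.380 UMIs per 100 marker UMIs in suprabasal-like cells, 0.478, 0.570 and 0.671 in placode-like cells, and 1.53, 0.849 and 0.597 in basal-like cells.

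**Figure D3:**
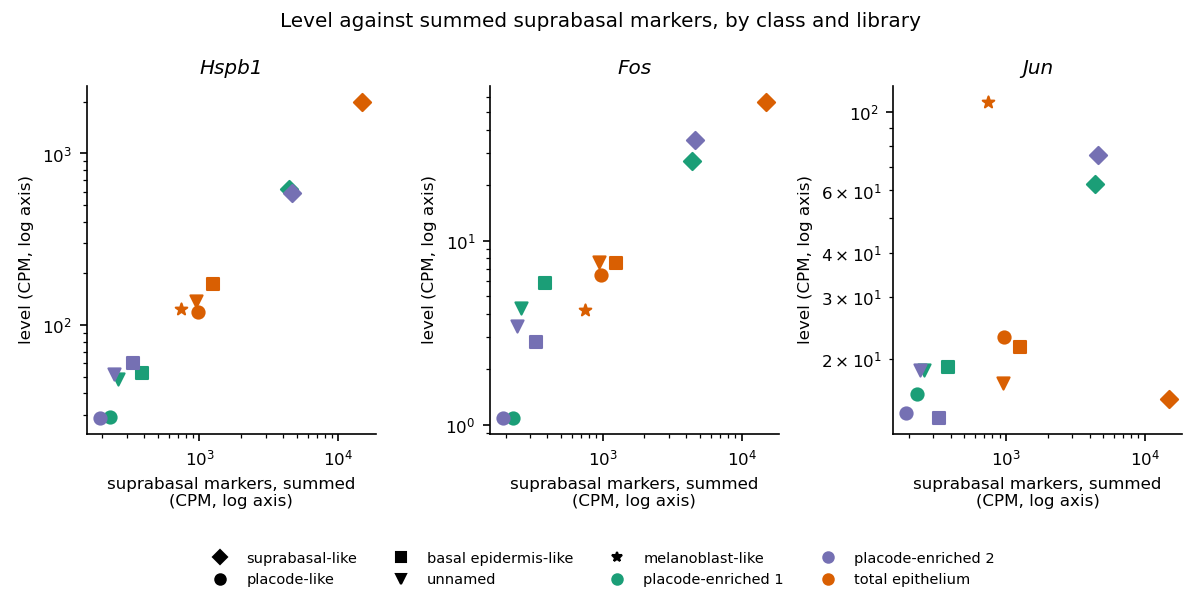
Level (CPM, log axis) of Hspb1, Fos and Jun against the summed level of 8 suprabasal markers (CPM, log axis); shape gives the class and colour the library. Hspb1 lies along a line from 28.6 to 2001 CPM, Fos follows it more loosely, and Jun does not: its highest point, 107 CPM, belongs to melanoblast-like cells.

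For the other members, fewer of the differences between libraries were called by both tools. In placode-like cells Junb was lower in the placode-enriched libraries by 1.21 ± 0.22 on the log2 scale with edgeR (adjusted p = 3.72e-06), and it also passed with DESeq2 (adjusted p = 0.0428), but not after thinning (0.612), at resolution 2 (0.109) or when clustered on the second part of the genes (0.125). Fos (-2.52 ± 0.56) and Egr1 (-2.10 ± 0.39) passed there with edgeR (adjusted p = 0.000629 and 1.34e-05), while DESeq2 gave adjusted p = 0.226 and 0.117. These made 4 of the 6 members in that class, of which Hspb1 and Junb were called by both tools. The class was not made up alike: cluster 5 held 5.61% and 4.42% of it in the placode-enriched libraries and 31.2% in total epithelium. Inside cluster 5, Junb was at 10.6 and 19.0 CPM in the placode-enriched libraries, against 47.6 CPM in total epithelium, and Egr1 at 3.27 and 5.71 CPM, against 20.8 CPM. Inside cluster 11, Junb was at 12.8 and 9.32 CPM, against 28.4 CPM, and Egr1 at 1.11 and 1.35 CPM, against 8.12 CPM. Inside cluster 12, Junb was at 16.4 and 17.3 CPM, against 40.1 CPM, and Egr1 at 4.18 and 1.55 CPM, against 5.73 CPM from 2 UMIs. Both genes kept their direction in these 3 clusters, the ones with at least 20 cells in every library. In basal-like cells Ier2 (-0.62 ± 0.15) and Junb (-0.85 ± 0.24) passed with edgeR (adjusted p = 0.00147 and 0.00491) and not with DESeq2 (0.301 and 0.632). In suprabasal-like cells Fos (-0.86 ± 0.21) and Ier2 (-0.55 ± 0.16) likewise passed with edgeR (adjusted p = 0.000597 and 0.00615) and not with DESeq2 (0.369 and 0.646). Every member other than Jun in the suprabasal-like class had a lower CPM in both placode-enriched libraries than in total epithelium, in each class. The share of all genes with this order was not counted, so the order alone does not set the members apart. Over all genes the median difference was 0.01, 0.03 and 0.01 (log2) in suprabasal-like, placode-like and basal-like cells.

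**Figure D4:**
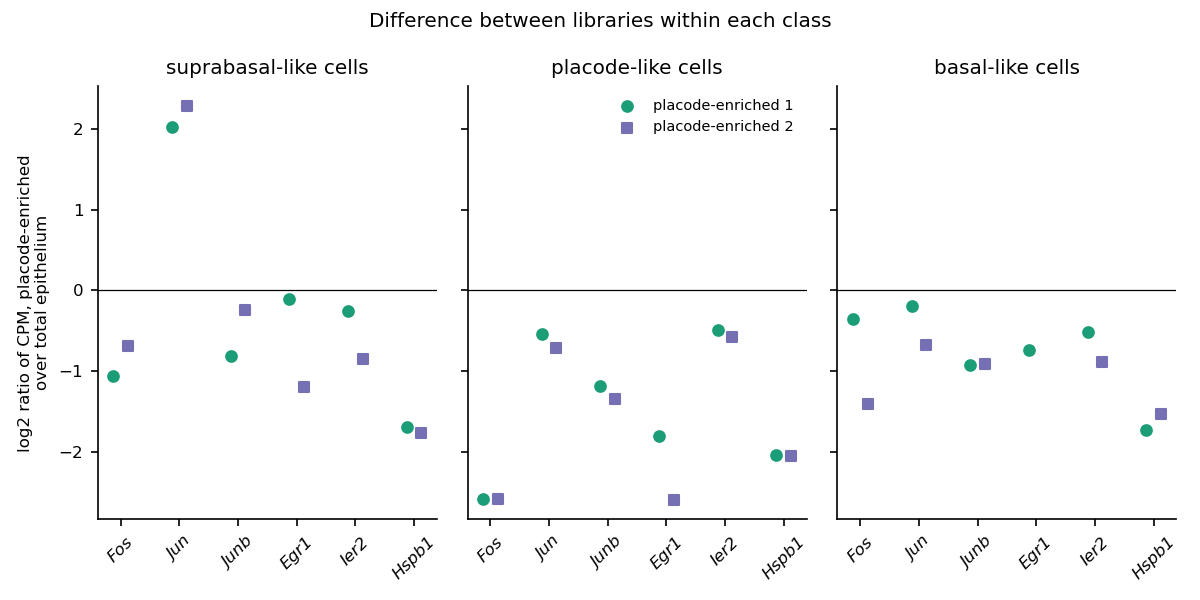
Log2 ratio of CPM in each placode-enriched library over the total epithelium library, per member and class (Egr1 in basal-like cells of placode-enriched library 2, with 0 UMIs, has no point). All points lie below 0 except those of Jun in suprabasal-like cells; Hspb1 lies between -2.05 and -1.53.

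Jun was the exception among the members: in suprabasal-like cells it was higher in the placode-enriched libraries, by 2.16 ± 0.22 on the log2 scale, or 4.46-fold (edgeR adjusted p = 1.36e-19, DESeq2 adjusted p = 6.90e-07). Whether the class difference itself varied with the sort was tested with an interaction term, suprabasal-like over basal-like in placode-enriched libraries minus the same in total epithelium. It came to 2.53 ± 0.24 for Jun (log2, edgeR adjusted p = 1.61e-22, DESeq2 adjusted p = 0.000247), the only one of 5 members tested to pass, where 10.6% of 5598 genes did. The same term was between -0.15 and 0.37 for Hspb1, Fos, Ier2 and Junb (adjusted p from 0.298 to 0.904). For placode-like over basal-like, no member of 6 passed with edgeR or DESeq2, where 1.13% of 6099 genes did with edgeR. Hspb1 (-0.44 ± 0.13) and Fos (-1.80 ± 0.57) had unadjusted p under 0.05, at 0.00167 and 0.00357, and adjusted p of 0.0911 and 0.136.

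The Jun level differed among clusters drawn at a finer resolution. Most suprabasal-like cells of the placode-enriched libraries fell in clusters 10 and 21 of that resolution, while in total epithelium 80 fell in cluster 10, 81 in cluster 11, 145 in cluster 12 and 15 in cluster 21. By the marker rules at that resolution only clusters 10 and 12 of these were suprabasal-like. Clusters 21 and 11 met 2 and 3 of the 8 suprabasal markers, where 4 were needed, and stayed unnamed. The cells counted here are those called suprabasal-like at resolution 1. In cluster 21 Jun was high in every library, at 61.7, 119 and 57.6 CPM from 40, 45 and 15 cells, and the interval of the total epithelium value was 32.9 to 93.6 CPM. In cluster 10 it was at 92.2 and 50.6 CPM in the placode-enriched libraries, against 12.8 CPM in total epithelium. In clusters 11 and 12 of total epithelium it was at 24.9 and 7.32 CPM. Krt17, a keratin of periderm, hair follicle and stressed keratinocytes, was chosen after its values were seen. Its level was 3717, 2847 and 4674 CPM in cluster 21, 4238, 3410 and 498 CPM in cluster 10, and 457 and 237 CPM in clusters 11 and 12 of total epithelium. Both genes were thus high in the same 5 sums, though not in the same order within a library. Over whole suprabasal-like classes Krt17 had 3482 and 2691 CPM in the placode-enriched libraries, against 527 CPM in total epithelium, whereas Krt1 had 649 and 650.4 CPM against 2891 CPM. The suprabasal-like classes compared for Jun thus held different mixtures of cells, and the part of that mixture in the Jun difference was not tested.

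**Figure D5:**
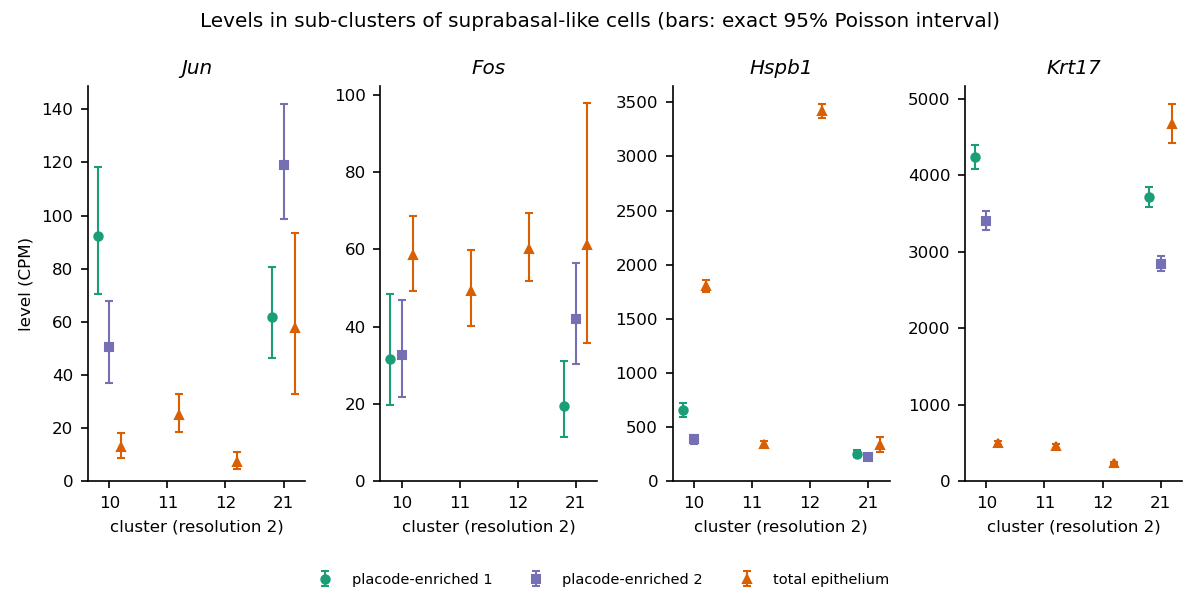
Level (CPM, linear axis from 0) of Jun, Fos, Hspb1 and Krt17 in finer clusters of suprabasal-like cells, by library, with exact 95% Poisson intervals; sums of under 10 cells are not shown. Jun and Krt17 are high in cluster 21 of all libraries and in cluster 10 of the placode-enriched libraries, and Hspb1 peaks at 3421 CPM in cluster 12 of total epithelium. Clusters 11 and 21 stayed unnamed by the marker rules at this finer resolution.

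Shares of cells were read after thinning each cell to 5000 UMIs, which left out 0 cells of these classes. Hspb1 was seen in 57.5%, 57.1% and 90.7% of suprabasal-like cells, 13.6%, 12.4% and 49.1% of placode-like cells, and 25.3%, 28.1% and 58.4% of basal-like cells. Fos was seen in 6.85%, 15.5% and 23.8% of suprabasal-like cells and in at most 4.46% of placode-like and 4.01% of basal-like cells. The melanocyte genes Dct and Pmel, which these classes should lack, were seen in 0% to 1.79% of their cells. In placode-like cells of placode-enriched library 2 Fos was seen in 0.431%, the same share as Dct. In those of placode-enriched library 1 it was seen in 1.12%, where Dct and Pmel were both at 0%, and the placode-enriched libraries held 1 and 0 melanoblast-like cells, against 20 in total epithelium. Median depths before thinning were 24138 to 27994 UMIs in suprabasal-like, 20329.5 to 21635 in placode-like and 21892.5 to 36132.5 in basal-like cells. Hspb1 was spread unevenly in suprabasal-like cells: its variance over cells was 10.6, 7.80 and 8.97 times its mean, against 0.955 to 1.05 times in basal-like cells. The highest suprabasal-like cell held 44 Hspb1 UMIs of 5000. Unthinned shares were higher, at 76.7%, 81.0% and 99.1% for Hspb1 in suprabasal-like cells, 42.0%, 44.7% and 89.3% in placode-like cells, and 75.3%, 73.0% and 96.5% in basal-like cells.

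Genes with the most similar profile over 29 sums of a cluster in a library were ranked by Pearson r of log2(CPM + 1) among 7639 genes. The sums share libraries and depth, so r is a description. Hspb1 was closest to the suprabasal keratins Krt1 (0.987) and Krt10 (0.976), and then to Capns2, Them5 and Krtdap. Fos was closest to the desmosomal cadherin Dsc3 (0.931), the water and glycerol channel Aqp3 (0.924), Aldh3b2 and Ppl. Egr1 was closest to Map2k1 (0.842), the kinase MEK1 that activates ERK, then to the member Ier2 (0.775), Orai1, Ormdl1 and Scamp1. Ier2 was closest to Ralb (0.860), Scamp1, Tpm4, Lamp1 and Fermt2, and Junb to H2-D1 (0.827), Pigs, Atp6ap1, Cry1 and Stard5. Jun had the weakest best match, Csrp1 (0.803), followed by Sat1, Capn2, Cfl1 and Pcbp4. Among the members, r was 0.874 for Fos with Hspb1, 0.647 for Egr1 with Junb and 0.631 for Ier2 with Junb, while the AP-1 partners Fos and Jun had r = 0.243.

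Other immediate-early genes did not move as a block between layers. Of 33 in both tables, 28 were tested in suprabasal-like against basal-like cells: 8 rose, 4 fell, and the median was 0.18 (log2), against -0.03 over all genes, of which 28.6% passed. Rhob, a small GTPase, was 3.86 ± 0.26 higher and the kinase gene Sgk1 3.60 ± 0.51 higher, while Cyr61, a matrix-associated target of mechanical signals, fell by 2.48 ± 0.64 on the log2 scale (adjusted p = 3.59e-05, 0.00165 and 0.0246). In placode-like against basal-like cells, 15 of 29 rose and 7 fell, with a median of 0.63 against -0.01 over all genes, of which 36.8% passed. Trib1, a pseudokinase, was 3.09 ± 0.13 higher, and Ctgf, a relative of Cyr61, 2.46 ± 0.15 higher, while Cyr61 fell by 3.11 ± 0.31 (adjusted p = 1.95e-09, 7.00e-08 and 5.64e-06). Between libraries, 8 of 26 were higher in the placode-enriched libraries and 3 lower in suprabasal-like cells (edgeR), with a median of 0.36 against 0.01 over all genes, of which 19.7% passed. One of the 8, Jund, a relative of Jun chosen after its values were seen, was 1.63 ± 0.16 higher (log2, adjusted p = 6.94e-23), so Jun was not alone in this direction. In placode-like cells 1 of 29 was higher and 3 lower (median -0.16 against 0.03; 4.49% of all genes passed), and in basal-like cells 3 of 27 were higher and 4 lower (median -0.02 against 0.01; 14.2%).

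The other heat shock and chaperone genes did not follow Hspb1 as a group in suprabasal-like against basal-like cells. More of them fell than rose in placode-like against basal-like cells, where Hspb1 was also lower. In suprabasal-like against basal-like cells 3 of 22 tested rose and 6 fell, with a median of -0.10 (log2), where 28.6% of all genes passed. The 3 that rose were Hsp70 genes: Hspa2 at 2.27 ± 0.40, Hspa1b at 2.14 ± 0.22 and Hspa1a at 1.91 ± 0.18 (adjusted p = 0.00469, 0.000334 and 0.000235). Hspa1a and Hspa1b, the inducible Hsp70 genes, are near-identical copies, so the split of reads between them is uncertain. Hspa1a averaged 33.2 ± 5.37 CPM in suprabasal-like cells and 8.47 ± 1.38 CPM in basal-like cells (SD, n = 3 libraries each). In placode-like against basal-like cells 2 of 22 rose and 13 fell, with a median of -0.19, where 36.8% of all genes passed; among those that fell were Hspb8 (-0.69 ± 0.11), Hspa1a (-0.57 ± 0.16) and the co-chaperone gene Dnajb4 (-0.55 ± 0.09; adjusted p = 0.000378, 0.0119 and 0.000453). Between libraries, 2 were higher in the placode-enriched ones and 5 lower of 22 tested in suprabasal-like cells, 1 and 2 of 22 in placode-like cells, and 2 and 0 of 21 in basal-like cells, where 19.7%, 4.49% and 14.2% of all genes passed. The sum of all 23, to which abundant chaperones contribute most, was 8923 and 8698 CPM in suprabasal-like cells of the placode-enriched libraries against 8545 CPM in those of total epithelium, 8575 and 8334 against 8332 CPM in placode-like cells, and 9811 and 9755 against 9068 CPM in basal-like cells.

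Genes upstream of the immediate-early response, such as EGF ligands, MAP kinases and their inhibitors, were 23 in both tables. In suprabasal-like against basal-like cells 3 of 18 tested rose and 3 fell, near the 28.6% of all genes that passed. Dusp6, an ERK phosphatase that ERK itself induces, was 1.20 ± 0.29 higher, while Spry2, an inhibitor of receptor kinase signalling, fell by 1.17 ± 0.29 and Mapk8, the kinase JNK1, by 0.88 ± 0.18 (adjusted p = 0.0196, 0.0208 and 0.00832). In placode-like against basal-like cells 7 of 20 rose and 3 fell, where 36.8% of all genes passed. Elk3, an ETS partner of serum response factor, was 3.30 ± 0.32 higher, Spry4 3.27 ± 0.37 higher and Dusp6 3.10 ± 0.09 higher (adjusted p = 3.76e-06, 1.66e-05 and 1.51e-10). Dusp6 averaged 537 ± 12.9 CPM in placode-like cells and 63.4 ± 16.7 CPM in basal-like cells (SD, n = 3 libraries each). Egr1 was likewise highest in placode-like cells among these 3 classes, and both it and Dusp6 are known targets of ERK signalling. Whether ERK signalling had a part in the Egr1 level of these cells was not tested.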

How the data were processed

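The deposited values are raw UMI counts per gene and cell; they are whole and, per the file headers, 1 column is 1 cell. Per the submitters' processing notes, the authors used Cell Ranger and Seurat with build mm10; no version is named, and for gene annotation, strand setting and cell filters nothing is stated there. The placode-enriched libraries shared a table and were told apart by the number after the barcode; a swap would change only their names. Pairs of libraries shared 1 or 2 barcodes.

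The 14656 genes in both tables were used; the others held 0.00685% and 0.0142% of UMIs. A filter of 500 genes and 10% mitochondrial UMIs removed 0 cells. Scrublet (scanpy 1.11.5, expected rate 0.05) marked 4, 4 and 11 cells as doublets, which were removed; these are few, so doublets can remain. Cells were clustered with the Leiden method (resolution 1, 20 neighbours, 30 components of 1000 variable genes) on 7231 genes, an arbitrary hash-chosen part that left out members, markers and lists. Of 14 clusters, those meeting no marker rule stayed unnamed; the rules' numbers were set after the clusters were seen. UMIs were summed per library and class and tested with edgeR 4.0.16 (quasi-likelihood, TMM, filterByExpr, Benjamini-Hochberg, threshold 0.05) on genes not used for clustering plus members and lists, with the library as a block in class comparisons, since both classes of a library come from the same pooled embryos. The scripts were tested on simulated data. DESeq2 1.42.0 was an alternative.

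The members, the 3 gene lists, the markers and the tests were chosen with earlier results of these data known. All members are named; from each list the 3 genes with the largest called difference in each of the 2 comparisons with basal-like cells, and the 5 most similar genes per member, are named, apart from 1 gene that is not reported here. Intervals are exact at 95%, Poisson for levels. Egr1 was left out of fits in which its counts fell under the filter. Nothing in the labels says more of how the replicates were made. P-values of the class comparisons are set against how class differences varied between these libraries. Those of the fits between libraries and of the interactions rest on 1 total epithelium library. They cannot measure how such libraries vary.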

Additional observations from a re-analysis of the deposited data

Results flagged for a closer look

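Jun was singled out because its class difference changed with the library: suprabasal-like over basal-like cells in the placode-enriched libraries minus the same in total epithelium came to 2.53 on the log2 scale (edgeR adjusted p = 1.61e-22, DESeq2 adjusted p = 0.000247), and it was between 2.14 and 2.70 over 4 alternatives, in all of which it passed. The ratio was 3.31 and 5.56 in the placode-enriched libraries and 0.714 in total epithelium. Krt17 and the make-up of the suprabasal-like class moved with it, and their part in the difference was not tested.

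The 20 melanoblast-like cells of total epithelium (cells with Dct, Pmel, Mitf and Sox10, the pigment cell lineage) entered no comparison and held high values of 3 members. Jun was at 107 CPM (95% interval 79.6 to 141), against 15.5 CPM in suprabasal-like, 23.1 CPM in placode-like and 21.7 CPM in basal-like cells of the same library. Ier2 was at 184 CPM (148 to 227), against 99.1, 80.5 and 49.1 CPM in those classes. Egr1 was at 21.0 CPM (10.1 to 38.6), from 10 UMIs, against 2.87, 11.7 and 1.10 CPM. There was 1 such library, so these values have no replicate check.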

How the results depend on the processing

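The libraries were the block in class comparisons because classes of 1 library share the same pooled embryos. With no replicate block the calls fell to 999 genes in suprabasal-like against basal-like cells (1599 with it), 1132 genes and 1 member in placode-like against basal-like cells (2246 and 5), and 2 members in suprabasal-like against placode-like cells (4). Leaving out each library in turn gave 932 to 1950 genes and 4 to 5 members, 1432 to 2613 genes and 4 to 5 members, and 1335 to 2108 genes and 3 to 4 members in these 3 comparisons.

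Counts also moved with the tool, with depth and with the limit on G2/M genes. In the same order, DESeq2 called 1052, 1224 and 1268 genes (2 members in the third), thinning to 5000 UMIs gave 747, 1049 and 827 genes (3 members in the second), and keeping cells under 500 CPM of G2/M genes, an alternative chosen after seeing the data, gave 429, 538 and 895 genes (3 members in the second).

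Between libraries, basal-like cells gave 809 genes and 3 members, against 138 and 1 with DESeq2, 255 and 1 thinned, 275 and 1 with no filter on low counts, 418 genes at resolution 0.5, 2 and 0 at resolution 2, and 16 and 0 under the G2/M limit. Placode-like cells gave 290 and 4, against 46 and 2 with DESeq2, 60 and 1 thinned, 86 genes at resolution 0.5, 39 and 1 at resolution 2, 14 and 1 when clustered on the second part of the genes, and 110 genes under the G2/M limit. Suprabasal-like cells gave 1014 and 4, against 154 and 2 with DESeq2, 325 genes thinned, 221 and 2 at resolution 2 and 484 genes under the G2/M limit. The suprabasal interaction gave 593 genes, against 41 with DESeq2 (added later), 115 thinned and 328 at resolution 2. The placode interaction gave 69 genes and 0 members, against 130 and 1 with RLE scaling, 38 genes thinned, 1 member at resolution 2 and 29 genes with DESeq2.

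Signs turned in values that had not passed, with 1 exception: Ier2 between libraries in basal-like cells, which had passed, was 0.0327 under the G2/M limit. Jun in placode-like against basal-like cells was 0.0632 at resolution 0.5 and ran from -0.119 to 0.0619 with a library left out, the highest without placode-enriched library 1, and between libraries in basal-like cells 0.0431 thinned. Junb in suprabasal-like against placode-like cells was -0.0151 at resolution 2 and ran from -0.0196 to 0.573 with a library left out, the lowest without placode-enriched library 2. In the suprabasal interaction Ier2 was -0.22 thinned and -0.39, Hspb1 0.0735 and Junb -0.23 at resolution 2, and in the placode interaction Junb was 0.0806 thinned and Egr1 0.18 at resolution 2. The cause of these shifts was not tested. Shares of cells moved with depth in 22 of 24 values tried.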

Other observations

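The unnamed cells, 355, 378 and 63 per library, fell in cluster 7, led by S-phase genes such as Ccne2 and Lig1, and cluster 13, led by Sostdc1 and Sox9. In the placode-enriched libraries Egr1 was at 0.71 and 0.17 CPM in cluster 7, from 3 and 1 UMIs, and at 4.34 and 1.34 CPM in cluster 13. Junb was at 9.04 and 10.5 CPM in cluster 7 and at 12.7 and 14.4 CPM in cluster 13, and Ier2 at 45.2 and 45.8 CPM in cluster 7 and at 52.4 and 63.3 CPM in cluster 13. Each of these 3 genes was higher in the Sostdc1-led cluster in both libraries. Hspb1 gave 19.0, 21.4 and 14.7 UMIs per 100 suprabasal marker UMIs in the unnamed cells of the 3 libraries, above the 12.2 to 18.0 of the named epithelial classes in the placode-enriched libraries.

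Over all cells of a library, without classes, Hspb1 stood at 69.2 and 73.7 CPM in the placode-enriched libraries and 569 CPM in total epithelium. Fos stood at 4.03 and 4.03 CPM in the placode-enriched libraries and 18.2 CPM in total epithelium. Jun stood at 19.6 and 18.9 CPM in the placode-enriched libraries and 21.4 CPM in total epithelium, so its class by library pattern was not visible in the unsplit cells.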
